A study of Mus musculus with 16 samples.

Results

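The genes examined here form the LIF receptor and gp130 cytokine pathway. They are the receptor chains Lifr, Il6st, Osmr and Il11ra1, the ligands Lif, Il6, Il11 and Clcf1, the transcription factor Stat3 and the feedback inhibitor Socs3. They were found by symbol in a table of raw read counts, where 8 of the 10 had a row among 15805 genes. Il6 and Il11 were not analysed here. Lifr was chosen by its measured values, namely its counts in blebbistatin against control explants. The other genes were chosen for their roles around it, when results of that comparison were known. The difference of Lifr between the groups is therefore given as a description, with no test.

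RNA was sequenced from 16 primary explants of C57BL6 mouse epicardium, the outer cell layer of the heart, annotated as epicardial cells and grown on a collagen gel. The groups were 8 explants with blebbistatin and 8 without it. The compound stops the motor protein myosin II from pulling on actin, and its stated use here was against nonmuscle myosin II. The labels give its dose as 20, once with the unit mM and once with mm, so the concentration is unsettled. No source used here gives the age of the mice or says whether controls received the solvent. Nothing in the labels ties explants to separate animals, so p-values measure the spread between explants. Total counts ran from 20176386 to 89620195 with blebbistatin and from 27065611 to 60321622 in controls.

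Cytokines of the interleukin 6 family share gp130, the protein of Il6st, as their signalling chain. LIF binds its own receptor chain, LIFR, which pairs with gp130, and oncostatin M uses OSMR with gp130. Interleukin 11 first binds IL11RA, and CLCF1, a ligand related to ciliary neurotrophic factor, signals through gp130 and LIFR. The paired chains activate JAK kinases, which phosphorylate STAT3. STAT3 enters the nucleus and switches on target genes, among them Socs3, whose product shuts the receptor down again. In the heart, this family is known for survival and growth signals to muscle cells and for acting on fibroblasts.

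The sequences before RefSeq starts of Socs3 and Lifr are shown because these genes stand at opposite ends of the pathway. Another reason is that Lifr has 2 RefSeq starts that gene-level counts cannot separate. For both genes the windows lie inside the annotated gene bounds given below, whose outer starts lie further upstream. All RefSeq windows here are the 250 bases before a start (build GRCm38.p6), written 5′ to 3′ on the gene's strand. Capitals mark TTCNNNGAA, the palindromic core of a STAT site, which reads alike on both strands. It was found in 7.02% of 32851 RefSeq windows of this length. The 10 genes had 12 windows, with none listed for Clcf1, and only that of Socs3 held it. The match TTCTTAGAA lies from base -154 to base -146 before the start. No window of these genes held the CArG box, the binding motif of serum response factor, found in 1.47% of all windows and searched on both strands. A match is a description of the letters and not of a bound site.
Socs3, chr11:117969367-117969616, minus strand: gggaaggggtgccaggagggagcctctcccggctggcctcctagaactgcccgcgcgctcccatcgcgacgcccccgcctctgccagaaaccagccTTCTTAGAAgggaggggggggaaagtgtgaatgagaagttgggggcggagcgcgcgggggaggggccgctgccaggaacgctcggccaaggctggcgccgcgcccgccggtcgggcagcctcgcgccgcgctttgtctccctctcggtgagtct
Lifr, first start, chr15:7129322-7129571, plus strand: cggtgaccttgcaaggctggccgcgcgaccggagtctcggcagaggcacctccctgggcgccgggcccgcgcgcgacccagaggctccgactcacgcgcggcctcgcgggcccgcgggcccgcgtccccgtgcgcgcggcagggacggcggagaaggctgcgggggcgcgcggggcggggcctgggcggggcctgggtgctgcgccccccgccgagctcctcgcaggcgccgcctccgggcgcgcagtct
Lifr, second start, chr15:7140292-7140541, plus strand: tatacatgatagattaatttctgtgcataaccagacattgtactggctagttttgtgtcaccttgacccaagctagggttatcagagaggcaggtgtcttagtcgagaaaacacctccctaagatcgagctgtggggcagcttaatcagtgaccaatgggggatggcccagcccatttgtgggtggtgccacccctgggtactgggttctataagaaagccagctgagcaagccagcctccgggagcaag
The first Lifr window was 82.4% G or C with 43 CpG dinucleotides, and the second was 50.8% G or C with 3. The Socs3 window was 71.6% G or C with 26 CpG dinucleotides.

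Before the groups are compared, the explants were checked for what else they held. All 14 epicardial and mesothelial markers had a row, and their summed level was 2203 to 5971 CPM (counts scaled to the library total) with blebbistatin and 3306 to 7304 CPM in controls. Of 12 macrophage and leukocyte markers 11 had a row, all but Aif1, with sums of 236 to 3298 CPM and 292 to 4294 CPM, so the share of these transcripts varied widely in both groups. The medians of C1qa and Fcgr1 were below 1 CPM. Lyz2, the largest part, averaged 712 ± 590 and 954 ± 1091 CPM (TMM-scaled as below, SD, n = 8 each). Cx3cr1 was also lower with blebbistatin, at 6.77 and 6.81 CPM. Ptprc, Cd68, Adgre1, Csf1r, Cd14, C1qb, Mrc1 and Fcgr1 had higher means with blebbistatin, Cd68 at 168 ± 167 and 104 ± 55.9 CPM. Of 9 endothelial markers 6 had a row, with sums of 25.7 to 74.0 and 37.7 to 95.8 CPM, and the defining Cdh5, Tie1 and Emcn had none. Of 12 cardiomyocyte markers 8 had a row, mainly through Tnnt2, with sums of 703 to 1282 and 460 to 1061 CPM, and Myh7, Tnni3, Nppa and Pln had none. Myh6, Actc1 and Myl4 had medians below 1 CPM. Tnnt2, Ttn and Ryr2 had higher means with blebbistatin, Tnni1 was nearly level at 51.7 and 48.8 CPM, and Myl7 was lower at 77.9 and 93.4 CPM. Fibroblast markers, all 9 with a row, summed to 13571 ± 2716 and 16104 ± 1978 CPM (SD, n = 8 each; exact permutation p = 0.0466, adjusted 0.186). The fibroblast markers did not move together. Fn1 (4441 and 6532 CPM), Col1a1, Col3a1 and Postn had lower means with blebbistatin. Pdgfra (221 ± 58.7 and 125 ± 39.2 CPM), Lum (170 ± 65.6 and 97.9 ± 46.7 CPM), Dcn, Col1a2 and Dpt had higher means. The 4 of 6 pericyte markers with a row summed to 128 ± 67.9 and 154 ± 43.3 CPM, and the 2 of 7 neural markers to 4.04 ± 2.22 and 3.24 ± 1.32 CPM. The cardiomyocyte sum had the smallest p of the lists (exact permutation test, 2-sided, p = 0.00886, adjusted over 8 lists 0.0709). The summed Y-linked genes exceeded 50 CPM in 5 of 8 blebbistatin and 2 of 8 control libraries. Control 5 had 126 CPM of these genes and also 342 CPM of Xist, which coats the inactive X chromosome. Mitochondrially encoded genes took 16.8 to 25.5% of the counts with blebbistatin and 13.8 to 18.9% in controls. In bulk RNA, fewer cells of a type and less RNA per cell cannot be told apart.

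Lifr, the chain that gives LIF its specific receptor, was about 2-fold higher with blebbistatin, while the difference of its partner chain Il6st did not pass the test. Lifr (ENSMUSG00000054263, GENCODE M21 on GRCm38, chromosome 15, 7090614 to 7197489, plus strand) has 8 annotated transcripts, 6 of them protein-coding. In TMM-scaled CPM, which corrects library totals for composition, its level in blebbistatin 1 to 8 was 169.5, 102.2, 113, 149.3, 119.2, 107.2, 94.4 and 170.7. In control 1 to 8 it was 51.0, 59.0, 45.2, 74.0, 82.1, 59.9, 57.6 and 59.2. Every treated explant lay above every control, with blebbistatin 1, 4 and 8 highest and control 4 and 5 nearest from below. The means were 128 ± 30.5 and 61.0 ± 11.9 CPM (SD, n = 8 each). On the log2 scale the fitted difference was 1.07 (SE 0.15). Across all 15675 genes tested, 0.0829% were higher with no overlap between the groups and 0.159% lower.

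The Lifr values were also set out on another scale and by the Y-linked signal. Relative to library totals without TMM scaling, the lowest treated explant stood at 88.2 CPM and the highest control at 83.7 CPM. Among explants with Y-linked genes above 50 CPM, Lifr was 133 ± 34.5 CPM in 5 with blebbistatin, and it was 74.0 and 82.1 CPM in the 2 controls. Among the others it was 94.4 to 149 CPM in 3 with blebbistatin and 45.2 to 59.9 CPM in 6 controls. With the Y-linked level as a covariate, the log2 fold change was 0.97, and without control 5 it was 1.14. With mitochondrial genes removed from the counts it was 1.07. Within controls the 2 explants with the Y-linked signal were the highest. Because the groups do not overlap, any split gives a higher treated mean, so these values support nothing. The cardiomyocyte marker sum, the list with the smallest p between the groups, had r = 0.19 with Lifr within groups (adjusted p = 0.778), and its part in the difference was not tested.

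**Figure D1:**
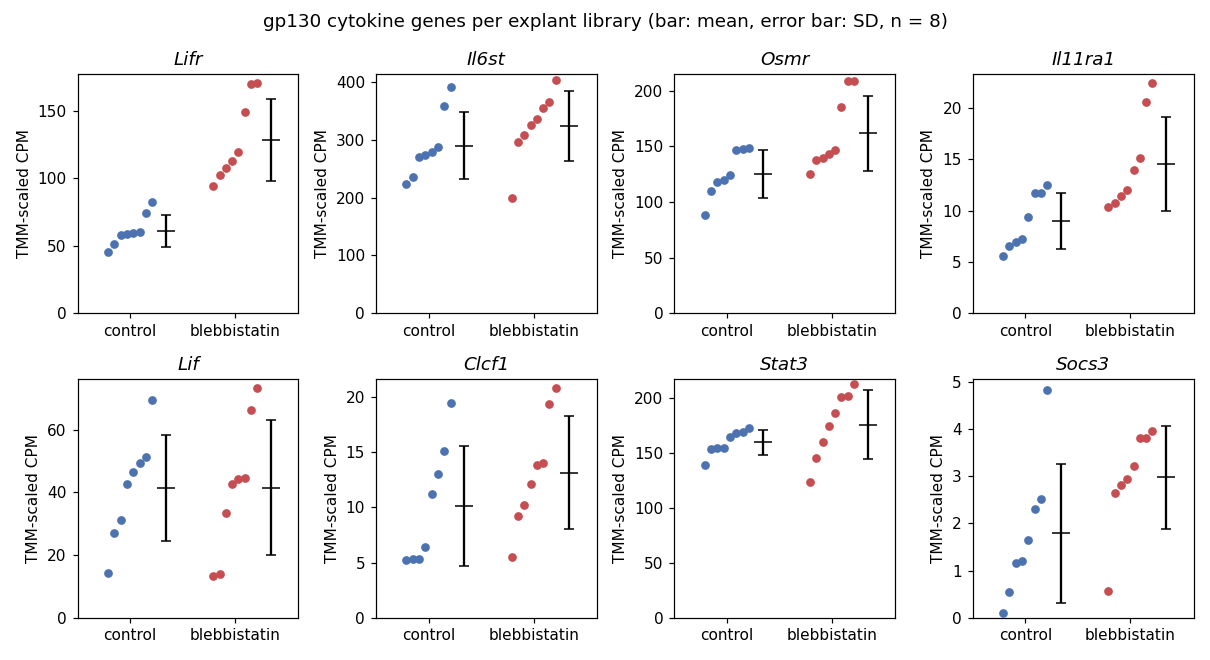
TMM-scaled CPM of each gene (vertical axes, starting at 0) in each explant library, with control in blue and blebbistatin in red, points ordered by value, and the mean with SD (n = 8) beside them. The Lifr groups do not overlap (94.4 CPM is the lowest treated and 82.1 CPM the highest control library), while those of the other 7 genes do.

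Il6st encodes gp130, the chain shared by the whole family (ENSMUSG00000021756, chromosome 13, 112464070 to 112510086). Its level was 199 to 403 CPM with blebbistatin, with a median of 330, and 223 to 392 CPM in controls, with a median of 277. The ranges lay almost on top of each other, and blebbistatin 8, among the highest for Lifr, was the lowest of all 16 for Il6st. The log2 fold change was 0.16 (SE 0.14, 95% interval -0.13 to 0.45, adjusted p = 0.701 in edgeR's quasi-likelihood test with Benjamini-Hochberg adjustment over all genes).

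Osmr, for the oncostatin M receptor chain, is the neighbour of Lifr on chromosome 15 (ENSMUSG00000022146, 6813577 to 6874969, minus strand). The genes lie 215644 bases apart, on opposite strands, with no protein-coding gene annotated between them. Osmr stood at 125 to 209 CPM with blebbistatin (median 145) and at 88.2 to 148 CPM in controls (median 122). Blebbistatin 3, 6 and 7 lay above all controls, and 5 controls lay below all treated explants. Blebbistatin 3 and 6 also had the highest macrophage marker sums of the treated group, 3298 and 1580 CPM, whose part was not tested. The log2 fold change was 0.37 (SE 0.14, 95% interval 0.09 to 0.65, adjusted p = 0.248), which did not pass the threshold of 0.05.

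Il11ra1, for the chain that binds interleukin 11 (ENSMUSG00000073889, chromosome 4, 41699989 to 41769474), was much lower in count. It stood at 10.4 to 22.5 CPM with blebbistatin (median 13.0) and at 5.61 to 12.5 CPM in controls (median 8.34). Blebbistatin 3, 5, 6 and 8 lay above all controls. The log2 fold change of 0.70 (SE 0.23, 95% interval 0.22 to 1.18, adjusted p = 0.184) did not pass. Its value is uncertain, because the annotated gene overlaps 6 others, the strand setting of the counting is not stated, and the near-identical Il11ra2 can share reads with it.

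The receptor chains were also set against Il6st per length. Per kilobase of exon, the ratio of Lifr to Il6st was 0.438 ± 0.204 with blebbistatin and 0.226 ± 0.0687 in controls (SD, n = 8 each). It reached 0.883 in blebbistatin 8, while the lowest treated value, 0.261 in blebbistatin 2, lay below the highest control, 0.341 in control 4. The ratio of Osmr to Il6st was 0.471 ± 0.114 and 0.407 ± 0.0991, the ratio of Il11ra1 to Il6st 0.118 ± 0.0508 and 0.0811 ± 0.0334, and the ratio of Lifr to Osmr 0.949 ± 0.380 and 0.557 ± 0.119. The ratios with Lifr rest on the values that chose the gene, and all are given as descriptions.

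**Figure D2:**
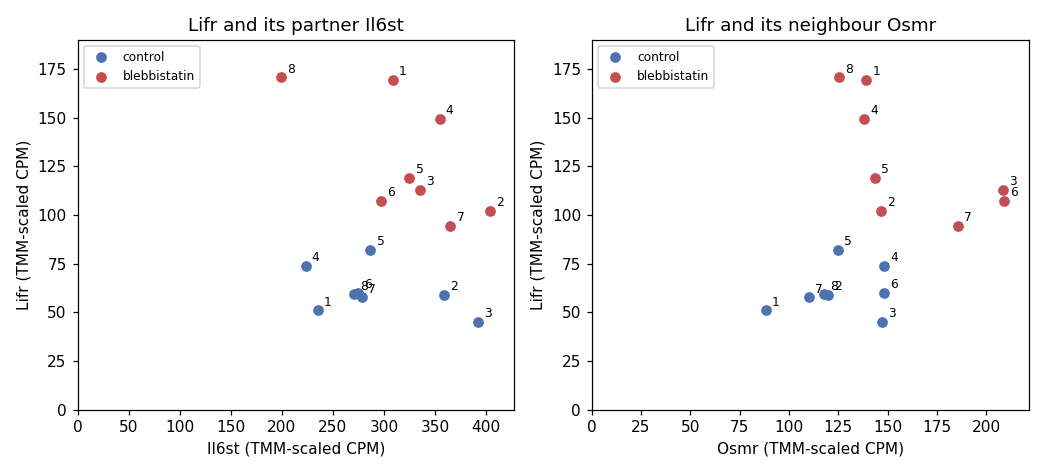
Lifr (vertical axes) against Il6st (left) and against Osmr (right), all in TMM-scaled CPM, 1 point per library, numbered by replicate within control (blue) and blebbistatin (red). The treated libraries, at 94.4 CPM of Lifr and above, form the upper band at overlapping levels of Il6st and Osmr, and blebbistatin 8 joins the highest Lifr to the lowest Il6st.

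Neither of the 2 ligands measured, Lif and Clcf1, passed the test. Lif, the ligand that gives the receptor its name (ENSMUSG00000034394, chromosome 11, 4257557 to 4272514), had nearly the same mean in both groups, 41.5 ± 21.6 and 41.5 ± 17.0 CPM (SD, n = 8 each). In blebbistatin 1 to 8 it was 73.3, 66.3, 14.1, 42.6, 33.4, 13.4, 44.7 and 44.4 CPM. In control 1 to 8 it was 49.3, 31.2, 42.8, 46.5, 51.3, 14.4, 27.0 and 69.4 CPM. Blebbistatin 3 and 6 and control 6 were low, and the groups overlapped fully. The log2 fold change was 0.00 (SE 0.33, 95% interval -0.70 to 0.70, adjusted p = 0.999).

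Clcf1, for cardiotrophin-like cytokine factor 1 (ENSMUSG00000040663, chromosome 19, 4214238 to 4223490), was 5.54 to 20.9 CPM with blebbistatin (median 13.0) and 5.21 to 19.5 CPM in controls (median 8.83). Its log2 fold change was 0.37 (SE 0.32, 95% interval -0.30 to 1.04, adjusted p = 0.693). Blebbistatin 1 and 5 and control 8 were high, and blebbistatin 3 and control 2, 3 and 6 were low. The annotation places Gm26115 on the other strand of this gene and AC109138.7 on the same strand.

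Stat3, for the transcription factor downstream of gp130 (ENSMUSG00000004040, chromosome 11, 100885098 to 100939540), was among the steadiest of these genes. It stood at 123 to 213 CPM with blebbistatin (median 181) and at 139 to 173 CPM in controls (median 160). Its coefficient of variation was 17.7% with blebbistatin and 6.92% in controls, against medians of 36.5% and 31.9% over all tested genes. The log2 fold change was 0.14 (SE 0.11, 95% interval -0.09 to 0.37, adjusted p = 0.658). Stat3 overlaps Stat5a, on the other strand.

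Socs3, the feedback inhibitor whose RefSeq window holds the STAT core shown above (ENSMUSG00000053113, chromosome 11, 117966079 to 117970047), was the least abundant. With blebbistatin it was 2.95, 2.65, 2.82, 3.82, 0.571, 3.22, 3.81 and 3.96 CPM in explants 1 to 8, from 21 to 205 counts. In control 1 to 8 it was 1.2, 2.31, 0.543, 0.0999, 1.15, 4.83, 1.65 and 2.52 CPM, from 3 to 164 counts. Of the treated explants 7 of 8 lay above the control median, but control 6 was the highest of all and blebbistatin 5 was low. The log2 fold change of 0.73 (SE 0.53, 95% interval -0.38 to 1.84, adjusted p = 0.631) did not pass, and the coefficient of variation in controls was 82.6%.

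Of the 7 genes besides Lifr, 0 passed edgeR over all genes, and 0 passed DESeq2 or limma voom. At an unadjusted p under 0.05 there were 2 of 7, Osmr and Il11ra1, both higher with blebbistatin. Over all 15675 genes, edgeR called 0.606%, of which 0.255% of all genes were higher and 0.351% lower, and 12.2% had an unadjusted p under 0.05. Lif lay at 0.00 and the other 6 between 0.14 and 0.73 on the log2 scale, against a median of 0.04 over all genes. Nothing is read from these counts, since the list was drawn up around this comparison.

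**Figure D3:**
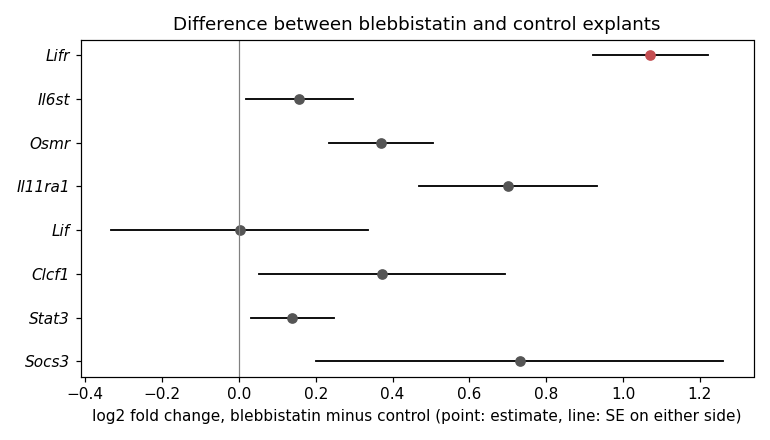
Log2 fold change of each gene, blebbistatin minus control (horizontal axis), with the estimate as a point and 1 SE on either side as a line. Lifr (red, 1.07) was chosen for this value, Il11ra1 and Socs3 stand at 0.70 and 0.73 with wider errors, and Lif stands at 0.00.

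Levels per kilobase of exon set the genes in order. In controls Il6st was highest at 26.1 ± 5.21 CPM per kb, followed by Stat3 at 16.8 ± 1.16, Osmr at 10.4 ± 1.77, Lif at 9.54 ± 3.90 and Lifr at 5.66 ± 1.10. Clcf1 followed at 2.67 ± 1.42, Il11ra1 at 2.01 ± 0.611 and Socs3 at 0.618 ± 0.511 (SD, n = 8 each). Osmr and Lif, Lif and Lifr, and Clcf1 and Il11ra1 differed by less than the larger of their SDs. With blebbistatin the order of the means was the same except that Lifr, at 11.9 ± 2.83 CPM per kb, stood above Lif at 9.55 ± 4.96. Lifr then differed from both Lif and Osmr, at 13.4 ± 2.78, by less than the larger SD. Il6st then stood at 29.1 ± 5.45 and Stat3 at 18.5 ± 3.27. The lengths count all annotated exons of a gene.

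**Figure D4:**
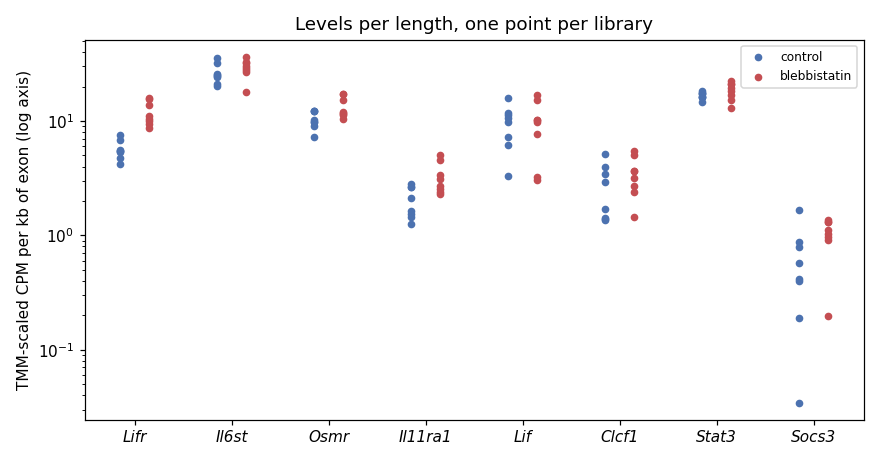
TMM-scaled CPM per kilobase of exon for each gene (log axis), 1 point per library, control in blue and blebbistatin in red. Il6st lies at the top, with means of 26.1 and 29.1, and Socs3 at the bottom, with means of 0.618 and 1.03.

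Explants differed in ligands and receptors within each group, and Lif went with the summed RNA of epicardial and mesothelial markers. After the group means were removed, Lif correlated with the summed epicardial and mesothelial markers over 16 libraries with Pearson's r = 0.89 (permutation within groups, p = 2e-05, adjusted over 92 relations 0.00184). Spearman's rho was 0.92 (p = 1e-05, the smallest the resamples can give, adjusted 0.00092). The r was 0.96 within blebbistatin and 0.80 within controls. It was 0.82 without control 6 and blebbistatin 6, the explants whose log2 Lif deviation from the group mean lay farthest from the median deviation. Those explants, with blebbistatin 3, had the lowest marker sums, 3306, 2203 and 2734 CPM. The markers include the surface proteins Msln, Upk3b and Upk1b, and Lif is not among them. The largest parts of the sum were Lrrn4, Upk1b and Upk3b, with means of 1059, 832 and 634 CPM with blebbistatin. The transcription factors Wt1, Tbx18 and Tcf21 stood at 65.5, 31.4 and 68.3 CPM there, and at 75.5, 50.3 and 62.0 CPM in controls. The keratins Krt8, Krt18 and Krt19 stood at 10.3, 7.90 and 12.1 CPM with blebbistatin and at 25.2, 20.9 and 30.5 CPM in controls. Of the list, only Tcf21 had the higher mean with blebbistatin. Whether Lif RNA comes from the epicardial cells was not tested.

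Clcf1 went against the macrophage and leukocyte markers, with r = -0.77 (permutation p = 0.00056, adjusted 0.0258) and rho = -0.75 (p = 0.0014, adjusted 0.0644), so the relation passed by r and not by rho. It was -0.78 within blebbistatin, -0.77 within controls and -0.67 without control 8 and blebbistatin 3. The largest part of this marker sum was Lyz2, with means of 712 CPM with blebbistatin and 954 CPM in controls. The relation therefore rests largely on that gene, and it was not tested without Lyz2. Osmr ran the other way, with r = 0.66 (adjusted p = 0.119), and Lif and Clcf1 with each other at r = 0.57 (adjusted p = 0.174), neither passing. Nor did Clcf1 with the epicardial markers, at r = 0.69 (adjusted p = 0.0938), 0.48 within blebbistatin and 0.93 within controls. Lif had r = -0.74 with the endothelial markers (adjusted p = 0.0938) and -0.67 with the macrophage markers (adjusted p = 0.119), neither passing. Relations with different marker lists were not separated from each other. The 92 relations were the 28 pairs of these genes and each gene with 8 marker lists, and 2 passed by r. For Lifr none passed: its r was -0.55 with Il6st (adjusted p = 0.2), -0.30 with the macrophage markers (adjusted p = 0.604), 0.21 with the epicardial markers (adjusted p = 0.778) and 0.45 with the Y-linked genes (adjusted p = 0.382).

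**Figure D5:**
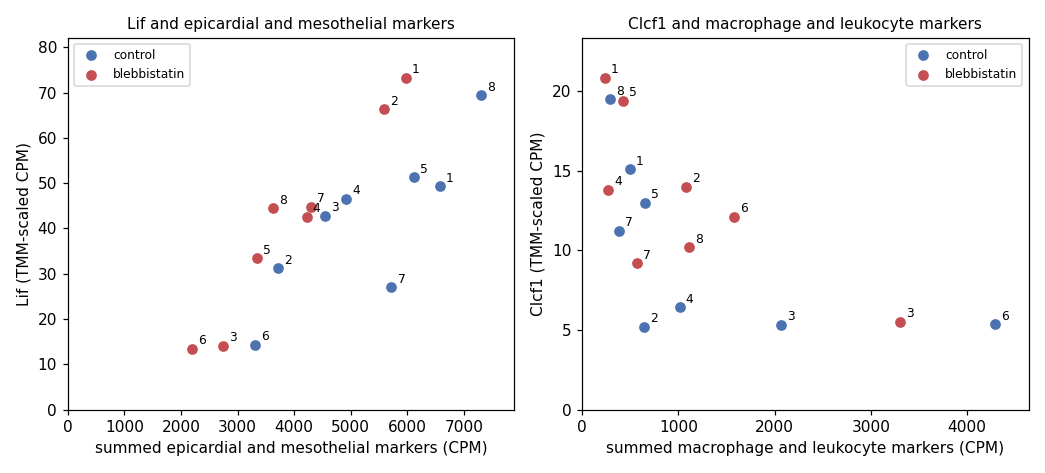
Left, Lif in TMM-scaled CPM against the summed epicardial and mesothelial markers in CPM, and right, Clcf1 against the summed macrophage and leukocyte markers, 1 point per library numbered by replicate, control in blue and blebbistatin in red. Lif is lowest (13.4 to 14.4 CPM) in blebbistatin 3 and 6 and control 6, the libraries with the smallest epicardial sums, and Clcf1 is low (5.33 to 5.54 CPM) in blebbistatin 3 and control 3 and 6, the libraries with the most macrophage markers, but it is lowest in control 2 (5.21 CPM), with 646 CPM of those markers.

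The genes whose explant-to-explant pattern was most like that of 4 of the pathway genes were taken from 9817 genes, by Pearson's r of the deviations from group means over 16 libraries. For Lifr these were Cxcl12, a chemokine (r = 0.88), Hmgn5, a nucleosome-binding protein (0.84), and Fam98a (0.82). The means of Cxcl12 were 243 and 191 CPM, and its log2 fold change was 0.35 (SE 0.30). For Osmr they were the transcription factor Tcf4 (0.86), the dynein heavy chain Dync2h1 (0.84) and the laminin chain Lama3 (0.84). For Il6st they were Smim13 (0.92), Wdr46 (0.88) and the splicing factor Puf60 (0.87), and for Socs3 the sorbitol dehydrogenase Sord (0.90), Lrrc14 (0.85) and Npl (0.80). They were picked as the highest of many, so no test is given.

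The wider pathway was taken from lists of genes drawn up by role. Of the other receptors and ligands of the family, 7 of 13 were tested and 0 passed, where 0.606% of all tested genes did. Their median log2 fold change was -0.04. Among those of smallest p were Ctf1, for cardiotrophin 1, at 4.55 ± 3.77 and 5.71 ± 1.90 CPM, and Ctf2, for cardiotrophin 2, at 1.26 ± 0.531 and 1.07 ± 0.427 CPM (blebbistatin, then control, SD, n = 8 each). Il6ra, for the binding chain of interleukin 6, was named for its role after its values were seen, at 8.41 ± 3.88 and 8.64 ± 4.03 CPM. So were Cntfr, the receptor of ciliary neurotrophic factor, at 1.11 ± 0.844 and 1.52 ± 3.05 CPM, and the ligand Osm at 1.03 ± 1.72 and 0.752 ± 1.03 CPM. The means of Ctf2, Cntfr and Osm were below 2 CPM.

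Of the JAK kinases and other STAT factors 9 of 10 were tested and 0 passed, where 0.606% of all tested genes did. The list had 0 at an unadjusted p under 0.05, against 12.2% of all tested genes, and a median of 0.20. Those of smallest p in the list were Stat5a (log2 fold change 0.58, SE 0.29), the kinase Tyk2 (0.58, SE 0.34) and Jak3 (0.83, SE 0.56). Of 15 tested negative regulators 0 passed. At an unadjusted p under 0.05, 1 was higher, where 6.21% of all tested genes were. It was the STAT3 inhibitor Pias3, at 14.3 ± 5.53 and 8.34 ± 2.1 CPM (0.78, SE 0.24, adjusted p = 0.151). Socs7 (0.39, SE 0.21) and Pias2 (-0.21, SE 0.13) were next.

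Of 13 adapters that link gp130 to the RAS and PI3 kinase pathways 0 passed, with 4 higher and 1 lower at an unadjusted p under 0.05, where 6.21% and 5.98% of all tested genes were. Pik3r1, for the regulatory subunit of PI3 kinase, was nearest to the threshold, at 78.0 ± 15.3 and 52.6 ± 8.83 CPM (0.57, SE 0.14, adjusted p = 0.0593). It passed with DESeq2 (adjusted p = 0.0107), with a macrophage covariate (0.0377), without blebbistatin 5 (0.0225) and without control 6 (0.0397). Those settings also called more of all genes, 407, 250, 180 and 206 in that order, against 95. In the other 20 of 24 alternatives no gene of the pathway lists passed, Pik3r1 included. Shc1, an adapter to RAS, was at 248 ± 55.9 and 191 ± 24.9 CPM (0.37, SE 0.13, adjusted p = 0.225), and Sos1, an exchange factor of RAS, at 81.9 ± 9.58 and 98.5 ± 11 CPM (-0.27, SE 0.10, adjusted p = 0.259).

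Of 29 tested target genes of STAT3 0 passed, and 7 were lower and 1 higher at an unadjusted p under 0.05, where 5.98% and 6.21% of all tested genes were. Vegfa, for a growth factor of blood vessels, stood at 39.8 ± 15.1 and 63.8 ± 16.4 CPM (-0.68, SE 0.21, adjusted p = 0.158). Timp1, for an inhibitor of matrix proteases, stood at 29.2 ± 18.0 and 59.3 ± 18.9 CPM (-1.02, SE 0.34, adjusted p = 0.187), and Fosl2, an AP-1 factor, at 162 ± 32.0 and 212 ± 32.4 CPM (-0.39, SE 0.13, adjusted p = 0.184). The median of the list was -0.01, with 14 of 29 positive. Many of these genes also answer to other signals.

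Of 21 tested type I and type II cytokine receptors outside the family 0 passed, with 4 higher and 1 lower at an unadjusted p under 0.05 (6.21% and 5.98% of all tested genes) and a median of 0.14. Those of smallest p were the prolactin receptor Prlr (1.29, SE 0.51), Il12rb2 (1.17, SE 0.47) and the interferon receptor Ifnar2 (0.47, SE 0.19). Of 5 genes that shed or sort receptors 0 passed, and Rhbdf2, a partner of the protease ADAM17, was the one of smallest p (-0.55, SE 0.24), followed by Adam10 (-0.13, SE 0.10) and Rhbdf1 (0.24, SE 0.20). Over all lists 98 genes were tested, 0 passed edgeR, and 10 were higher and 10 lower at an unadjusted p under 0.05. Of all 15675 genes, edgeR called 0.606%, and 6.21% were higher and 5.98% lower at that unadjusted p. Limma voom called 0 and DESeq2 1 of them, Pik3r1.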

How the data were processed

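RNA from 16 explants was amplified with an Ovation kit and sequenced from Nextera XT libraries, per the labels' protocols. The authors deposited raw counts of reads per gene. Per the submitters' processing notes, HTSeq 0.6.1p1, SAMtools 1.3, TopHat2 2.1.0, edgeR and Bowtie2 2.2.6.0 were used with build mm10 (GRCm38). Their roles, the strand setting and the annotation were not stated in the sources used here. Each gene of the table exceeded 1 CPM in at least 4 libraries, as tested on the table, so genes below that were not analysed here. Of the gene IDs 15665 matched GENCODE M21.

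Counts were TMM-scaled and filtered with filterByExpr, leaving 15675 genes, all 8 pathway genes among them. Groups were compared by quasi-likelihood in edgeR 4.0.16 under R 4.3.3, with no covariate. P-values were Benjamini-Hochberg adjusted across all tested genes (threshold 0.05), and the procedure was checked on simulated data. DESeq2 1.42.0 and limma voom 3.58.1 were alternatives. Log2 CPM used a prior count of 2. Correlations were tested by 100000 permutations within groups. The pathway genes and lists were chosen with earlier results of these data known. Named genes were all pathway genes, the 3 of smallest p per list and the 3 most like Lifr, Osmr, Il6st and Socs3 (at least 5 CPM, no predicted genes); 1 gene that this rule names is not reported here.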

Additional observations from a re-analysis of the deposited data

Results flagged for a closer look

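In groups of 8 explants, a value was singled out where its gap to the nearest other was a large part of the group's range (Dixon's test at 95%), which chance alone does in about 1 of 20 groups. Of 18 groups tested 3 had such a value. Socs3 stood at 0.571 CPM in blebbistatin 5, below the next lowest treated explant at 2.65 CPM. The total counts of 89620195 in blebbistatin 2 and of 60321622 in control 5 stood above the next deepest libraries of their groups, at 52751420 and 42534288. Without blebbistatin 2 and without control 5 the log2 fold change of Lifr was 1.11 and 1.14.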

How the results depend on the processing

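Lifr had a log2 fold change of 0.90 without blebbistatin 1 and 8 (an alternative added after the data were seen) to 1.14 without control 5 over 24 alternatives; its sign was fixed by the choice of the gene and is no sign of stability. The other 7 genes stayed short of the threshold in all 24. The lowest adjusted p was 0.115 for Osmr (macrophage covariate) and 0.0791 for Il11ra1 (DESeq2). Lif, near 0 throughout, turned negative with limma voom (-0.0442), the Y-linked covariate (-0.0433), the macrophage covariate (-0.0566), without blebbistatin 1 and 8 (-0.22), and in some sets with 1 library left out, which ranged from -0.17 to 0.15. The number of genes called, 95, was 407 with DESeq2, 250 with the macrophage covariate, 22 with the Y-linked covariate and 44 to 206 with 1 library left out; the cause was not tested. It was 180 without blebbistatin 5 and 206 without control 6, and 44 to 62 without blebbistatin 6 or 8 or control 1, 2, 4, 7 or 8. Of the pathway lists 0 genes passed, against 1 with DESeq2, 1 with the macrophage covariate and 0 to 1 with 1 library left out.

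With the replicate number as a block there were 177 calls, 77 of them among the 95, and the log2 fold change of Lif was -0.0821. Same-numbered libraries correlated at 0.00394 to 0.279, all positive but not all above 0.1, and 2 of 8 correlated best with their own number. The labels do not say what a number marks, so the numbers were not taken as pairs, and these values do not settle it. Counting error is widest for Socs3, with 3 counts in control 4.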
